A study of Homo sapiens with 8 samples.

Results

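The transcripts of the mitochondrial genome were examined in RNA-seq libraries of ABC1 and HCC4006, established human lung adenocarcinoma cell lines without mutations in KEAP1 or NRF2. Cells of each line were treated for 16 h with 100 μM DEM, an electrophile that depletes glutathione and activates the transcription factor NRF2, or with the vehicle DMSO, and all were grown in low-glucose DMEM with serum. The 4 groups (ABC1-vehicle, ABC1-DEM, HCC4006-vehicle and HCC4006-DEM) held 2 libraries each, numbered 0 and 1, which the study describes as biological duplicates. RNA carrying a poly(A) tail was selected before library preparation. Members were all genes whose symbol starts with MT-, which gave 37 of the 57815 gene identifiers in the files: 13 mRNAs, 2 rRNAs and 22 tRNAs.

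The mitochondrial genome is a small circle that encodes core subunits of the respiratory chain and the ATP synthase, together with the rRNAs and tRNAs of the mitochondrial ribosome. Both strands are transcribed into long precursors, most of whose mRNAs and rRNAs are released by cutting out the tRNAs that lie between them. The level of a mature transcript therefore depends on processing and stability as well as on transcription. The mRNAs encode 7 subunits of complex I (NADH dehydrogenase), 1 of complex III, 3 of complex IV (cytochrome c oxidase) and 2 of complex V (ATP synthase). In the GRCh37 reference 12 of the 13 mRNAs lie on the plus strand, and MT-ND6 lies alone on the minus strand.

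3 pairs of neighbouring mRNA genes overlap, MT-ATP8 with MT-ATP6 by 46 bases, MT-ND4L with MT-ND4 by 7 bases and MT-ATP6 with MT-CO3 by 1 base. The first pair is carried by 1 messenger, as is the second. Reads from the shared bases belong to both genes of a pair, so the sequences of these longer overlaps are shown with the overlap in capitals and 12 bases on each side. They were read 5′ to 3′ from the plus strand of GRCh37, at chrM:8515-8584 and chrM:10748-10778.
MT-ATP8 and MT-ATP6: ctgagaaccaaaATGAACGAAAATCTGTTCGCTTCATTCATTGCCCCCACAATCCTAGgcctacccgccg
MT-ND4L and MT-ND4: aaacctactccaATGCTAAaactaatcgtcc

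6 of the 13 mRNAs do not end on a whole codon, and their stop codon is completed by the poly(A) tail on which library selection also relied. Their last 15 bases are shown from the plus strand of GRCh37, with the bases of the unfinished stop codon in capitals. They lie at chrM:4248-4262 for MT-ND1, chrM:5497-5511 for MT-ND2, chrM:9976-9990 for MT-CO3, chrM:10390-10404 for MT-ND3, chrM:12123-12137 for MT-ND4 and chrM:15873-15887 for MT-CYB.
MT-ND1: tccccctcaaaccTA
MT-ND2: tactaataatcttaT
MT-CO3: attgatgagggtctT
MT-ND3: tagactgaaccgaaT
MT-ND4: ccgggttttcctctT
MT-CYB: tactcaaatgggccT

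The values per library were FPKM, in which the fragments of a gene are divided by transcript length and by the mapped fragments of the library, as deposited by the authors. FPKM summed over all genes differed by at most 1.18-fold between libraries, and the number of reads behind each value is unknown. As a check of the treatment, all 5 NRF2 target genes examined (GCLM, HMOX1, NQO1, SRXN1 and TXNRD1) were upregulated by DEM in both lines, where 0.768% of the genes tested in ABC1 and 8.45% of those in HCC4006 were (limma with Benjamini-Hochberg adjustment). In ABC1 these calls held in 7 (NQO1) to 12 (HMOX1) of 13 alternative settings, and in HCC4006 they held in all 13 but for NQO1, which held in 12. The epithelial markers EPCAM, CDH1, KRT8, KRT18 and KRT19 were detected in every library. The lung lineage factor NKX2-1 was at 42.4 to 47.1 FPKM in HCC4006 but at 0.502 to 0.763 FPKM in ABC1. NAPSA, a further marker of lung adenocarcinoma, was at 12.9 to 16.0 FPKM in HCC4006 but at 0.234 to 0.646 FPKM in ABC1. SFTPB, a surfactant gene, was at most 0.277 FPKM in either line. Of 7 markers of leukocytes, endothelium and fibroblasts, only the collagen genes COL1A1 (up to 7.64 FPKM) and COL1A2 (up to 1.48 FPKM) passed 1 FPKM in any library.

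The 13 mRNAs had some of the highest values in the files and the 24 other members had none. Each mRNA was measured in every library and was tested in every comparison, whereas both rRNAs and all 22 tRNAs were listed at exactly 0 FPKM in all 8 libraries. The summed FPKM of the mRNAs made up 16.1% and 15.9% of the total in the ABC1-vehicle libraries and 16.4% and 20.2% in the ABC1-DEM libraries. In HCC4006 the shares were 15.6% and 13.6% with vehicle and 16.5% and 15.1% with DEM. The ABC1-DEM library of replicate 1 was the highest of the 8, and in HCC4006 the vehicle and DEM values overlapped.

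The share was 15.96% ± 0.158 (SD, n = 2) with vehicle and 18.3% ± 2.75 (SD, n = 2) with DEM in ABC1, a difference of 2.34 percentage points. In HCC4006 it was 14.6% ± 1.41 with vehicle and 15.8% ± 0.9746 with DEM (SD, n = 2 each), a difference of 1.13 percentage points. An exact two-sided permutation test gave p = 0.333 in ABC1 and p = 0.667 in HCC4006, and 0.333 is the smallest p that 2 libraries against 2 can give. A single library decided the size of the difference in ABC1, which was 0.393 percentage points without ABC1-DEM replicate 1 and 4.28 without ABC1-DEM replicate 0. In HCC4006 it was 0.128 without HCC4006-vehicle replicate 1 and 2.13 without HCC4006-vehicle replicate 0.

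**Figure D1:**
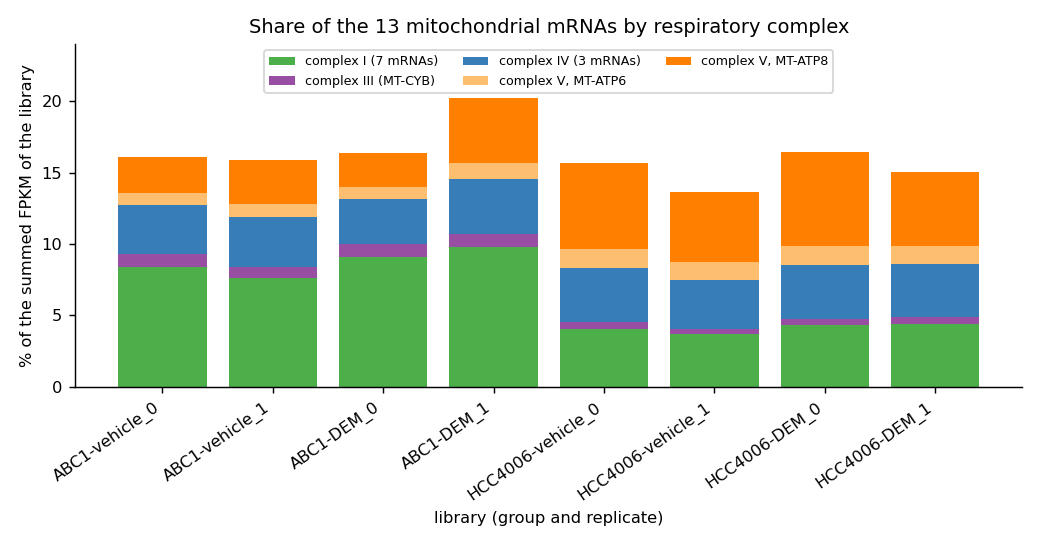
Bars give the share of each library's summed FPKM (y axis, percent) that came from the 13 mitochondrial mRNAs, for the 8 libraries on the x axis, with colours for the respiratory complex and MT-ATP8 shown apart from MT-ATP6. Complex I makes up more of the bar in the ABC1 libraries (48.2% to 55.6% of mitochondrial FPKM) than in the HCC4006 libraries (25.9% to 29.3%), and ABC1-DEM replicate 1 is the highest bar at 20.2%. MT-ATP8 alone makes up 14.5% to 22.6% of mitochondrial FPKM in ABC1 and 34.5% to 40.2% in HCC4006.

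The shares of complexes I and V in the mitochondrial signal differed between the lines by more than between treatments. In the ABC1 libraries the 7 complex I mRNAs held 48.2% to 55.6% of mitochondrial FPKM, and in HCC4006 they held 25.9% to 29.3%. The complex V pair, MT-ATP6 and MT-ATP8, held 19.6% to 28.1% in ABC1 and 43.1% to 48.3% in HCC4006. The ranges of the lines did not overlap for either complex. MT-ATP8 alone held 14.5% to 22.6% in ABC1 and 34.5% to 40.2% in HCC4006. Its FPKM exceeded its level by the authors' pooled counts, described below, 13.8-fold in ABC1 and 17.9-fold in HCC4006. The shares of all complexes therefore hold for FPKM only. Complex IV held 18.9% to 22.2% in ABC1 and 22.8% to 25.1% in HCC4006. With DEM, complex I changed by 1.71 percentage points in ABC1 (exact two-sided permutation p = 0.667, n = 2 against 2) and by 1.30 in HCC4006 (p = 0.667). The share of complex IV in ABC1 went from 21.8% ± 0.639 with vehicle to 19.1% ± 0.229 with DEM (SD, n = 2 each), a difference of -2.69 percentage points. Its groups did not overlap, and the exact two-sided permutation p was 0.333, the smallest possible. In HCC4006 complex IV changed by -1.01 percentage points (exact permutation p = 0.667).

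MT-ATP8 (ENSG00000228253.1, chrM:8366-8572), which encodes a small subunit of the ATP synthase, had the highest FPKM in every library. Its values were 15614 and 21156 FPKM in ABC1-vehicle, 14842 and 33795 in ABC1-DEM, 41622 and 32532 in HCC4006-vehicle, and 45848 and 34887 in HCC4006-DEM. It was also the mRNA whose replicates differed most in each of the 4 groups, by 0.44 on the log2 scale in ABC1-vehicle, 1.19 in ABC1-DEM, -0.36 in HCC4006-vehicle and -0.39 in HCC4006-DEM (replicate 1 minus replicate 0).

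MT-CO2 (ENSG00000198712.1, chrM:7586-8269), MT-ND4 (ENSG00000198886.2, chrM:10760-12137) and MT-ND1 (ENSG00000198888.2, chrM:3307-4262) followed MT-ATP8 in ABC1. MT-CO2, which encodes a copper-binding core subunit of cytochrome c oxidase, had 10592 and 13937 FPKM in ABC1-vehicle, 9758 and 15713 in ABC1-DEM, 13355 and 11100 in HCC4006-vehicle, and 12964 and 11808 in HCC4006-DEM. MT-ND4, a subunit of the proton-pumping arm of complex I, had 11387 and 10796 FPKM in ABC1-vehicle, 11355 and 15156 in ABC1-DEM, 10049 and 8363 in HCC4006-vehicle, and 11156 and 10964 in HCC4006-DEM. These mRNAs stood at similar levels in both lines, and the order of MT-CO2 and MT-ND4 in ABC1 changed from library to library. MT-ND1, a complex I subunit next to the ubiquinone-binding site, had 10378 and 10104 FPKM in ABC1-vehicle, 12438 and 15004 in ABC1-DEM, 2518 and 2059 in HCC4006-vehicle, and 2618 and 2427 in HCC4006-DEM. It was among the most abundant mRNAs of ABC1 and among the least abundant of HCC4006.

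The remaining complex I mRNAs were MT-ND2 (ENSG00000198763.3, chrM:4470-5511), MT-ND3 (ENSG00000198840.2, chrM:10059-10404), MT-ND4L (ENSG00000212907.2, chrM:10470-10766), MT-ND5 (ENSG00000198786.2, chrM:12337-14148) and MT-ND6 (ENSG00000198695.2, chrM:14149-14673). MT-ND5, like MT-ND2 and MT-ND4 a subunit of the proton-pumping arm, had 6400 and 6403 FPKM in ABC1-vehicle, 7013 and 8924 in ABC1-DEM, 2120 and 1828 in HCC4006-vehicle, and 2236 and 2188 in HCC4006-DEM. MT-ND2 had 5228 and 6234 FPKM in ABC1-vehicle, 5796 and 8307 in ABC1-DEM, 2840 and 2349 in HCC4006-vehicle, and 2600 and 2311 in HCC4006-DEM. MT-ND6 had 7100 and 7809 FPKM in ABC1-vehicle, 8258 and 11794 in ABC1-DEM, 2791 and 2326 in HCC4006-vehicle, and 3099 and 2693 in HCC4006-DEM. For all 3 genes each ABC1 library was above each HCC4006 library. MT-ND4L had 9064 and 7689 FPKM in ABC1-vehicle, 8931 and 8661 in ABC1-DEM, 6060 and 5595 in HCC4006-vehicle, and 6246 and 7152 in HCC4006-DEM. MT-ND3 was the lowest mRNA of both lines by mean FPKM, with 3357 and 4209 FPKM in ABC1-vehicle, 3248 and 4305 in ABC1-DEM, 1903 and 1793 in HCC4006-vehicle, and 1841 and 1926 in HCC4006-DEM. For these as well the lines did not overlap. With MT-CYB, described next, 7 mRNAs thus had all 4 ABC1 libraries above all 4 HCC4006 libraries, a pattern of 28.1% of the genes tested.

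The others encode subunits of complexes III, IV and V. MT-CYB (ENSG00000198727.2, chrM:14747-15887), cytochrome b of complex III, had 5410 and 5319 FPKM in ABC1-vehicle, 5709 and 6926 in ABC1-DEM, 3243 and 2736 in HCC4006-vehicle, and 3132 and 3169 in HCC4006-DEM. MT-CO1 (ENSG00000198804.2, chrM:5904-7445), the catalytic subunit of cytochrome c oxidase, had 6470 and 6435 FPKM in ABC1-vehicle, 5839 and 7749 in ABC1-DEM, 6752 and 5893 in HCC4006-vehicle, and 6998 and 6779 in HCC4006-DEM. MT-CYB was higher in every ABC1 library, whereas the lines overlapped for MT-CO1. MT-CO3 (ENSG00000198938.2, chrM:9207-9990), another core subunit of that enzyme, had 4466 and 4173 FPKM in ABC1-vehicle, 4118 and 4754 in ABC1-DEM, 6296 and 5656 in HCC4006-vehicle, and 6043 and 6162 in HCC4006-DEM. MT-ATP6 (ENSG00000198899.2, chrM:8527-9207), which forms the proton path of the ATP synthase, had 5598 and 6274 FPKM in ABC1-vehicle, 5250 and 8200 in ABC1-DEM, 9496 and 8153 in HCC4006-vehicle, and 9249 and 8782 in HCC4006-DEM. MT-CO3 was the 1 mRNA of the 13 that was lower in every ABC1 library than in every HCC4006 library (34.7% of the genes tested), while MT-ATP6 overlapped through ABC1-DEM replicate 1.

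**Figure D2:**
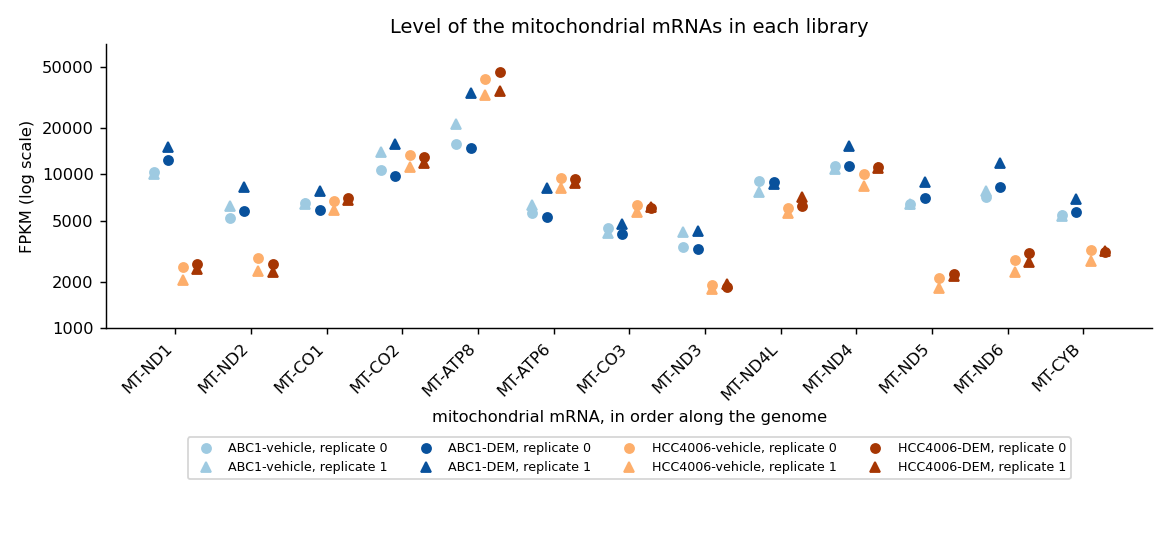
Each point is the FPKM (y axis, log scale) of a mitochondrial mRNA in 1 library, with the genes on the x axis in their order along the genome, blue for ABC1, orange for HCC4006, darker shades for DEM, circles for replicate 0 and triangles for replicate 1. MT-ATP8 is highest in every library, MT-ND1 lies at 10104 to 15004 FPKM in ABC1 and at 2059 to 2618 in HCC4006, and the ABC1-DEM triangle is the highest ABC1 point for 12 of the 13 mRNAs.

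The lines were compared without DEM to describe the state on which the treatment acted. With vehicle, 7 mRNAs were lower and 3 were higher in HCC4006 than in ABC1, and MT-CO1, MT-CO2 and MT-ND4 did not pass the test (limma on log2(FPKM + 1), Benjamini-Hochberg adjusted p under 0.05). Of all 13682 genes tested, 66.9% passed in this comparison, 30.2% lower and 36.8% higher in HCC4006, so a difference between the lines was common. There is 1 line of each kind, so the test compares these cultures and no wider class of cells.

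MT-ND1 had the largest difference and was 4.50-fold lower in HCC4006, at -2.17 on the log2 scale (standard error, SE, 0.15, limma adjusted p = 9.5e-06). The values of MT-ND5 (-1.70, SE 0.15) and MT-ND6 (-1.55, SE 0.19) followed on the log2 scale. MT-ND2 differed by -1.14 (SE 0.20), MT-ND3 by -1.02 (SE 0.17), MT-CYB by -0.85 (SE 0.14) and MT-ND4L by -0.52 (SE 0.14). All 7 lower mRNAs but MT-CYB thus encode subunits of complex I, and MT-ND4 was the complex I mRNA that did not pass the test (-0.27, SE 0.17, adjusted p = 0.197 by limma). It passed when libraries were scaled to their nuclear sum (adjusted p = 0.0478). The adjusted p of MT-ND1, MT-ND2, MT-ND3, MT-ND5 and MT-ND6 stayed under 0.05 in each alternative processing examined, and the highest was 0.04996, for MT-ND2. All of these alternatives start from the same FPKM, and the base means of MT-ND6, described below, differed by only -0.39. MT-CYB lost its call without the minimum of 1 FPKM (0.0788). MT-ND4L lost it there (0.449), without ABC1-vehicle replicate 0 (0.0688), without HCC4006-vehicle replicate 0 (0.0588) and without HCC4006-vehicle replicate 1 (0.112).

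The 3 mRNAs that were higher in HCC4006 lie next to each other on the genome. MT-ATP8 and MT-ATP6 are carried by 1 messenger, so their calls are not independent. MT-ATP8 differed by 1.02 on the log2 scale (SE 0.38, adjusted p = 0.0458 by limma), MT-ATP6 by 0.57 (SE 0.21, adjusted p = 0.0457) and MT-CO3 by 0.47 (SE 0.13, adjusted p = 0.0125). These calls were close to the threshold, and 2 of the 3 were lost with a pseudocount of 0.1. Leaving out any 1 vehicle library, or either HCC4006-DEM library, gave MT-ATP8 an adjusted p between 0.0661 and 0.215 (limma), and without the minimum of 1 FPKM it was 0.739. MT-ATP6 lost its call in the same alternatives, with an adjusted p between 0.0821 and 0.230 when a library was left out. MT-CO3 lost it without the minimum of 1 FPKM (0.345), without ABC1-vehicle replicate 1 (0.0595) and without HCC4006-vehicle replicate 0 (0.123). For MT-CO1 the difference was -0.03 (95% confidence interval -0.41 to 0.34) and for MT-CO2 it was 0.00 (95% confidence interval -0.58 to 0.59).

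The authors' base means, each the authors' pooled mean of normalized counts over the 4 libraries of a line, give a second quantity for the same libraries. Divided by gene length and by the line's total, they differed between the lines by -2.30 on the log2 scale for MT-ND1, -1.79 for MT-ND5, -1.32 for MT-ND2, -1.03 for MT-ND3, -0.92 for MT-CYB, 0.62 for MT-ATP6 and 0.50 for MT-CO3, with no error available. These lie close to the FPKM differences. For MT-ND6 the base means differed by only -0.39, against -1.55 in the FPKM of the vehicle libraries. In the mean FPKM of all 4 libraries of a line, pooled as the base means are, the difference was -1.68. For MT-ATP8 the base means differed by 0.48, against 1.02 with vehicle and 0.86 in the pooled FPKM.

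**Figure D3:**
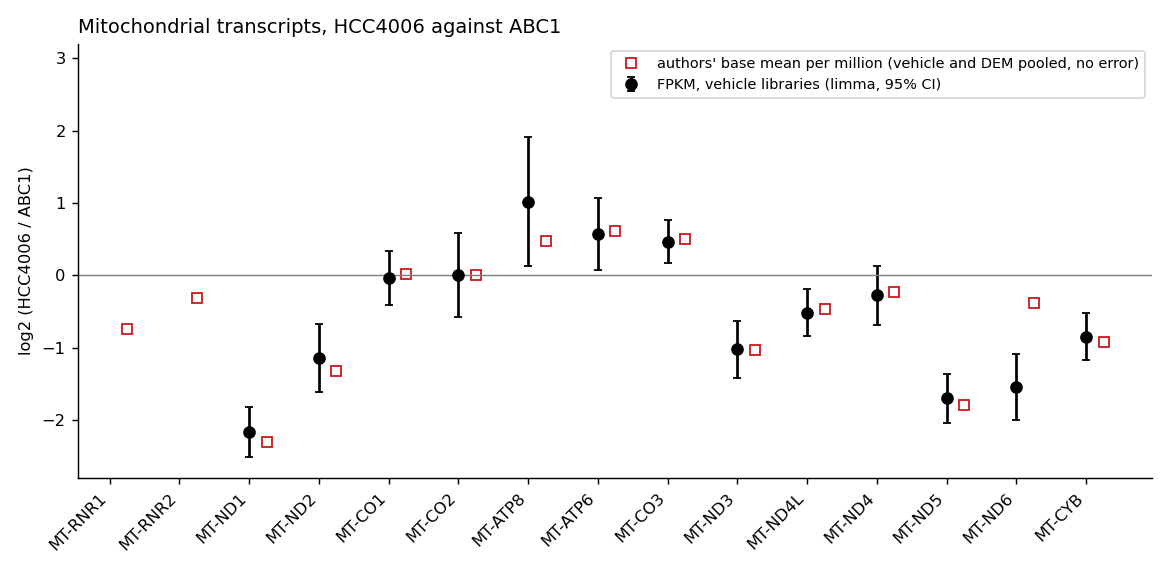
The y axis gives the log2 ratio of HCC4006 to ABC1 for the rRNAs and mRNAs on the x axis, in order along the genome within each class. Black points are the limma estimates from vehicle FPKM with 95% confidence intervals, and open squares are the same ratio from the authors' base means pooled over vehicle and DEM, without error. MT-ND1 is lowest on both scales (-2.17 and -2.30), and the scales part for MT-ND6 (-1.55 and -0.39).

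Ratios between genes of the same library do not depend on how the libraries were scaled. The FPKM of MT-ND1 over that of MT-ND4 was 0.911 and 0.936 in ABC1-vehicle, 1.10 and 0.99 in ABC1-DEM, 0.251 and 0.246 in HCC4006-vehicle, and 0.235 and 0.221 in HCC4006-DEM. MT-ND1 over MT-CO1 was 1.60 and 1.57 in ABC1-vehicle, 2.13 and 1.94 in ABC1-DEM, 0.373 and 0.349 in HCC4006-vehicle, and 0.374 and 0.358 in HCC4006-DEM. Both ratios separated the lines without overlap, and in ABC1 both were higher in each DEM library than in each vehicle library. In HCC4006 MT-ND1 over MT-ND4 was lower in each DEM library than in each vehicle library, and the groups overlapped for MT-ND1 over MT-CO1. Both ratios share MT-ND1, and how many other gene pairs separate the treatments in this way was not examined. MT-CO2 over MT-CO3 was 2.37 and 3.34 in ABC1-vehicle and 2.37 and 3.31 in ABC1-DEM, so in ABC1 it followed the replicate number and not the treatment, and in HCC4006 its 4 values were 1.92 to 2.145.

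The response to DEM was examined within each line. No mitochondrial mRNA was called changed by DEM in ABC1 or in HCC4006: 0 of 13 passed in either line, where 1.2% of the 12635 genes tested in ABC1 and 19.1% of the 13542 tested in HCC4006 did (limma with Benjamini-Hochberg adjustment). With the replicate number as a block, MT-ND1 was called higher with DEM in ABC1 (limma adjusted p = 0.0481), as were MT-ND4 (0.0385) and MT-ND6 (0.0307) in HCC4006. MT-ND4 was also called in HCC4006 when scaled by GAPDH (0.0349). Without these changes, at an unadjusted p under 0.05 there were 0 in ABC1 and 1, MT-ND4, in HCC4006. The log2 fold change was above 0 for 12 of 13 mRNAs in each line, against 47.7% of all genes in ABC1 and 47.0% in HCC4006, and the mRNAs of a line were measured in the same 4 libraries.

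In ABC1 the log2 fold changes ran from -0.01 for MT-ND3 to 0.42 for MT-ND1, with a median of 0.23 beside -0.02 over all genes tested. MT-ND1 had the lowest adjusted p (0.338 by limma, SE 0.22, 95% confidence interval -0.14 to 0.97), followed by MT-ND6 at 0.41 (SE 0.25) and MT-ND5 at 0.31 (SE 0.22). Together with MT-CYB (0.23, SE 0.20), these were the 4 mRNAs whose DEM libraries both lay above both vehicle libraries, a pattern that 25.5% of all genes showed. The complex IV mRNAs were near 0, with 0.06 for MT-CO1, 0.03 for MT-CO2 and 0.04 for MT-CO3.

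The ABC1 values depended on ABC1-DEM replicate 1. In that library 12 of the 13 mRNAs were higher than in ABC1-DEM replicate 0, by a median of 0.41 on the log2 scale, with 1.19 for MT-ATP8 and -0.04 for MT-ND4L. Over all genes the median difference between these replicates was 0.06. Without ABC1-DEM replicate 1 the median log2 fold change of the mRNAs was 0.02, and without ABC1-DEM replicate 0 it was 0.45. The ABC1-vehicle replicates had a median difference of 0.00 and 7 of 13 mRNAs higher in replicate 1.

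In HCC4006 the log2 fold changes ran from -0.08 for MT-ND2 to 0.27 for MT-ND4, with a median of 0.12 beside -0.03 over all genes tested. MT-ND4 had an SE of 0.10 and a 95% confidence interval from 0.03 to 0.51, and its adjusted p was 0.101 by limma. MT-ND4L (0.20, SE 0.09) and MT-ND5 (0.17, SE 0.08) came next among the mRNAs that did not overlap between groups. There were 4 such mRNAs, the last being MT-CO1 (0.13, SE 0.08), where 29.3% of all genes had both DEM libraries above both vehicle libraries. All 13 mRNAs were lower in HCC4006-vehicle replicate 1 than in replicate 0, by a median of -0.25, against -0.02 over all genes. Without HCC4006-vehicle replicate 1 the median log2 fold change was -0.02, and without HCC4006-vehicle replicate 0 it was 0.22.

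The intervals show what size of change these libraries could have resolved. In HCC4006 they lay between -0.34 and 0.53 on the log2 scale for all 13 mRNAs, the widest being that of MT-ATP8 (-0.29 to 0.53). In ABC1 the intervals were wider, from -0.43 to 0.50 for MT-CO3 up to -0.78 to 1.38 for MT-ATP8. Of 200 randomly chosen genes given a simulated 4-fold change, the same test recovered 86.5% in ABC1 and 94% in HCC4006. It falsely called 6 genes in ABC1 and 14 in HCC4006. The simulated noise was drawn separately for each gene, so it held no deviation shared by the mRNAs of a library. The recovered share does not measure the power for the smaller changes of the mitochondrial mRNAs. In ABC1 their SEs were 0.19 to 0.44, beside a median of 0.17 over all genes tested.

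**Figure D4:**
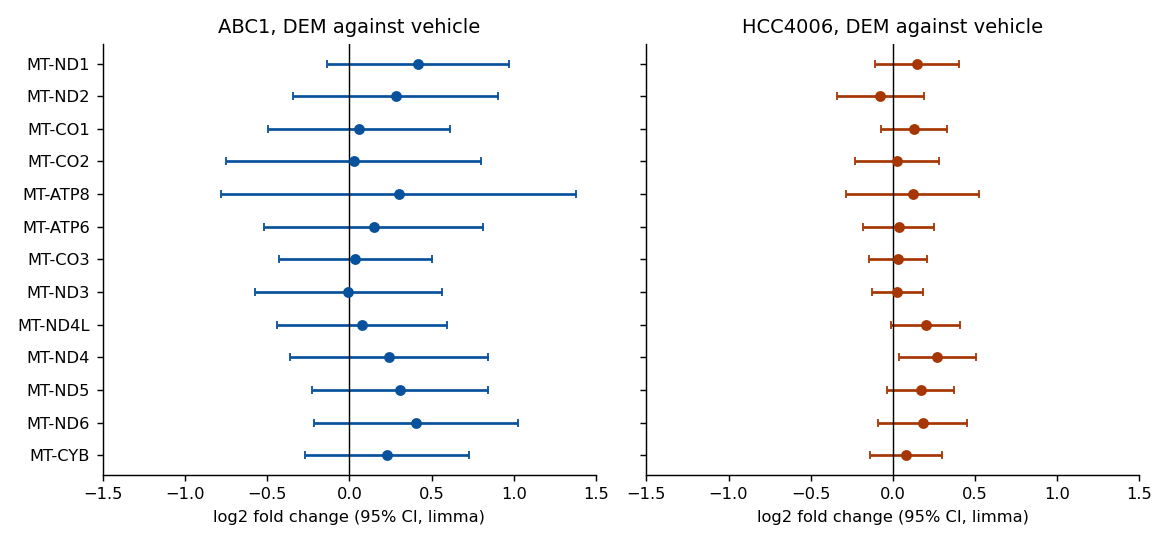
Points are log2 fold changes of DEM against vehicle (x axis) for each mitochondrial mRNA (y axis, in order along the genome) in ABC1 on the left and HCC4006 on the right, with 95% confidence intervals from limma. All intervals of ABC1 include 0, those of HCC4006 are narrower, and there MT-ND4 (0.27, from 0.03 to 0.51) is the one whose interval does not include 0.

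Whether the response differed between the lines was tested as an interaction of line and treatment in a model of all 8 libraries. None of the 13 mRNAs passed, where 0.636% of all 13682 genes tested did, and 0 had an unadjusted p under 0.05 (limma). The differences, HCC4006 minus ABC1, ran from -0.36 for MT-ND2 (SE 0.28, adjusted p = 0.63 by limma) to 0.12 for MT-ND4L (SE 0.20).

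Of the 24 members listed at 0 FPKM, both rRNAs and 15 of the 22 tRNAs had a base mean above 0 in at least 1 line. MT-RNR2 (ENSG00000210082.2, chrM:1671-3229), the 16S rRNA of the large ribosomal subunit, had a base mean of 151223 in ABC1 and 123400 in HCC4006. MT-RNR1 (ENSG00000211459.2, chrM:648-1601), the 12S rRNA of the small subunit, had 25841 in ABC1 and 15647 in HCC4006. Per base of length, MT-RNR2 exceeded MT-RNR1 3.58-fold in ABC1 and 4.83-fold in HCC4006, and in the ribosome the rRNAs are present in equal number. The rRNAs made up 1.28% of the summed base mean of all genes in ABC1 and 0.996% in HCC4006, and the mRNAs made up 7.87% and 5.37%.

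The tRNAs were mostly at or near 0 in the base means as well, with 7 of the 22 at 0 in both lines. Above a base mean of 3 there were 8 in ABC1 and 6 in HCC4006. The highest was MT-TI (ENSG00000210100.1, chrM:4263-4331), the isoleucine tRNA gene that begins at the base after MT-ND1 ends, with a base mean of 609 in ABC1 and 10.2 in HCC4006. MT-TW (tryptophan, chrM:5512-5579) had 86.8 in ABC1 and 0.513 in HCC4006, and MT-TM (methionine, chrM:4402-4469) had 26.3 and 0.246. Both adjoin MT-ND2, which MT-TM precedes and MT-TW follows. These 3 had the widest gaps between the lines, whereas MT-TT, MT-TP, MT-TQ and MT-TA were between 8.64 and 53.5 in both lines. MT-TS1 had 23.1 in ABC1 and 6.17 in HCC4006. The base means are 1 pooled value a line, so none of these differences could be tested.

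A listing at 0 FPKM beside a high base mean was rare outside the mitochondrial genome. Of 15311 genes with a base mean over 10 in either line, 29 were listed at 0 FPKM in all libraries. They were both mitochondrial rRNAs, all 8 mitochondrial tRNAs above that base mean and 19 nuclear genes, of which the highest had a base mean of 72.9. None of the 13016 protein-coding genes over that base mean was listed at 0. The FPKM shares of the mitochondrial genome given above thus hold no rRNA, and how the FPKM of these genes came to be 0 was not tested.

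The order of the mRNA levels depended on which of the quantities was used. MT-ATP8 was first by FPKM, with a mean of 21352 FPKM in ABC1 and 38722 in HCC4006, but its base mean rate, the base mean divided by gene length and by the summed base mean of the line on the scale of FPKM, was 1549 in ABC1 and 2162 in HCC4006, the second lowest value in ABC1. FPKM exceeded that rate 13.8-fold in ABC1 and 17.9-fold in HCC4006. For MT-ND6 the excess was 30.9-fold in ABC1 and 12.6-fold in HCC4006, and by base mean MT-ND6 was the lowest mRNA of both lines, at 282 and 216. By base mean the highest mRNAs of ABC1 were MT-ND4 (11420), MT-CO2 (10952) and MT-ND1 (10772), and those of HCC4006 were MT-CO2 (10938) and MT-ND4 (9743).

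The 5 shortest mRNAs had the 5 highest ratios of FPKM to base mean rate. MT-ND4L (297 bases) was at 1.88 in ABC1 and 1.90 in HCC4006, MT-ND3 (346 bases) at 1.58 and 1.59, and MT-ATP6 (681 bases) at 1.38 and 1.27, beside MT-ATP8 (207 bases) and MT-ND6 (525 bases). The 8 longer mRNAs were at 0.915 to 1.18 in ABC1 and at 0.921 to 1.147 in HCC4006. The shortest of these, MT-CO2 (684 bases), was at 1.14 in ABC1 and 1.13 in HCC4006. Nuclear protein-coding genes with a single annotated transcript had a median ratio of 0.994 in ABC1 (463 genes) and 0.974 in HCC4006 (512 genes), and 0.864% and 0.391% of them exceeded MT-ATP8. Among those of at most 700 bases the median was 1.07 in ABC1 (21 genes) and 1.04 in HCC4006 (18 genes). MT-ATP8, MT-ATP6, MT-CO3, MT-ND4L and MT-ND4 share bases with another mRNA and MT-ND6 lies opposite heavy-strand precursors, and whether the counts used the strand is not given in the sources used here.

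**Figure D5:**
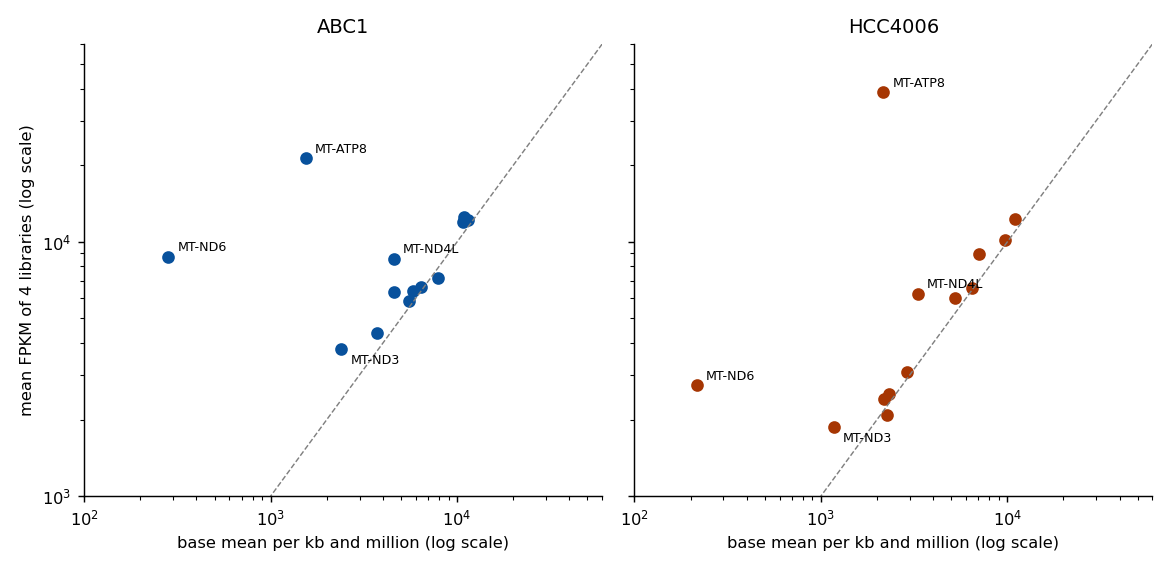
Each point is a mitochondrial mRNA, with the base mean rate (per kilobase of gene, scaled to the line's total) on the x axis and the mean FPKM of the line's 4 libraries on the y axis, both on log scales, for ABC1 on the left and HCC4006 on the right. The dashed line marks equal values, most mRNAs lie near it, and MT-ATP8 (13.8-fold and 17.9-fold) and MT-ND6 (30.9-fold and 12.6-fold) lie far above it.

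The same gap entered the ratios within the overlapping pairs. MT-ATP8 over MT-ATP6 was 2.79 to 4.12 by FPKM in the ABC1 libraries and 3.97 to 4.96 in the HCC4006 libraries, but 0.338 and 0.307 by base mean rate. MT-ND4L over MT-ND4 was 0.571 to 0.796 by FPKM in ABC1 and 0.560 to 0.669 in HCC4006, and 0.400 and 0.339 by base mean rate. MT-ND6 over MT-ND5, its neighbour on the opposite strand, was between 1.11 and 1.39 by FPKM in all 8 libraries, but 0.0360 in ABC1 and 0.0949 in HCC4006 by base mean rate. Without MT-ATP8 the mitochondrial share of FPKM was 13.2% to 16.4% in ABC1 and 9.18% to 10.5% in HCC4006, so the lines then did not overlap. Each DEM library then lay above each vehicle library of its line. In HCC4006 the shares were 10.28% and 9.18% with vehicle and 10.53% and 10.42% with DEM. The exact two-sided permutation p was 0.333 in either line, the smallest possible.

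Copies of mitochondrial genes in the nuclear genome can share reads with the members. The files held 394 annotated copies, of which 317 were listed at 0 in all libraries and 15 had a mean of at least 1 FPKM. MTATP6P1 (chr1:569076-569756, plus strand), a copy of MT-ATP6, held 86.0% of their summed FPKM and had 2207 and 2578 FPKM in ABC1-vehicle, 2063 and 3477 in ABC1-DEM, 4384 and 3513 in HCC4006-vehicle, and 4278 and 3794 in HCC4006-DEM. Like MT-ATP6 it was higher in HCC4006 with vehicle (log2 fold change 0.72, SE 0.25, adjusted p = 0.0329 by limma), and this call held in 9 of 16 alternatives. It matched MT-ATP6 at 98.5% of 681 bases in GRCh37. The 10 differences, with the base of MT-ATP6 first and positions counted from its first base, were G19A, C129T, A151C, A175G, A192G, A334G, C417T, C534A, C549T and C642T. The longest identical run was 141 bases, longer than the 80-base reads.

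MTND2P28 (chr1:565020-566063, plus strand), a copy of MT-ND2 with 98.4% identity, was at 437.5 to 954 FPKM in ABC1 and at 199 to 286 FPKM in HCC4006. With vehicle it was lower in HCC4006 (log2 fold change -1.22, SE 0.35, adjusted p = 0.0155 by limma), as was MT-ND2. MTND4P12 (8.78 to 27.5 FPKM), MTCO2P2 (4.27 to 19.97 FPKM) and MTCO2P12 (7.06 to 15.8 FPKM) were the next highest. None of these copies passed the test for DEM in either line. All copies together held between 0.416% and 0.682% of a library's summed FPKM, and adding their FPKM to that of the parent gene changed no call of the 13 mRNAs in any comparison.

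Nuclear genes that act on the mitochondrial genome were described from lists, by their counts. The list of mitochondrial transcription and RNA processing held 38 genes, 37 of which were matched and tested in each line. In ABC1 none was called (background 1.2%), with log2 fold changes from -0.61 for PNPT1, a subunit of the RNA-degrading complex (SE 0.15, adjusted p = 0.107 by limma), to 0.38 for GRSF1, an RNA granule protein (SE 0.12). In HCC4006 3 were downregulated, where 10.7% of all genes were, and 0 were upregulated. TFAM, which packages mitochondrial DNA and starts its transcription, went from 35.5 and 33.5 FPKM with vehicle to 22.8 and 26.5 with DEM (log2 fold change -0.47, SE 0.10, adjusted p = 0.0274 by limma). MRM2, an rRNA methyltransferase, changed by -0.38 (SE 0.07) and TRMT10C, a subunit of the enzyme that cuts the 5′ end of tRNAs, by -0.35 (SE 0.08). Of 13 alternatives, the call of TFAM held in 7, that of MRM2 in 6 and that of TRMT10C in 5. The highest value in HCC4006 was that of MTERF2, at 0.23 (SE 0.21). The median was -0.15 in ABC1 and -0.06 in HCC4006, beside -0.02 and -0.03 over all genes.

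Of 16 genes for maintenance of mitochondrial DNA, 0 were called in ABC1 (background 1.2%), where values ran from -0.60 for SLC25A4 (SE 0.14) to 0.52 for PRIMPOL (SE 0.14). In HCC4006 1 was upregulated, where 8.45% of all genes were, and it was POLG, the catalytic subunit of the mitochondrial DNA polymerase, with 16.0 and 14.9 FPKM with vehicle and 19.3 and 21.4 with DEM (log2 fold change 0.37, SE 0.10, adjusted p = 0.0474 by limma). Its call held in 7 of 13 alternatives. The lowest there was DNA2, at -0.58 (SE 0.25, adjusted p = 0.146 by limma). Medians were 0.00 in ABC1 and -0.19 in HCC4006.

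Of 8 regulators of mitochondrial biogenesis, 7 were tested. In HCC4006 2 were upregulated, where 8.45% of all genes were: GABPB1, a subunit of the factor NRF-2/GABP, which is distinct from the NRF2 of the KEAP1 pathway (0.61, SE 0.15, adjusted p = 0.04 by limma), and YY1 (0.39, SE 0.10, adjusted p = 0.044). Each of these calls held in 7 of 13 alternatives. In ABC1 0 were called (background 1.2%), with 0.58 for GABPB1 (SE 0.13, adjusted p = 0.0933 by limma) and -0.65 for PPARGC1B (SE 0.21). The lowest in HCC4006 was PPRC1, at -0.06. Medians were 0.13 in ABC1 and 0.15 in HCC4006.

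The 36 nuclear-encoded subunits of complexes I, III, IV and V on the list had a lower median than the mitochondrial mRNAs in both lines. None was called in either line, where 1.2% of all genes in ABC1 and 19.1% in HCC4006 were, and their median was -0.10 in HCC4006 and -0.13 in ABC1, where that of the mitochondrial mRNAs was 0.12 and 0.23. The difference between the medians was not tested. Values ran from -0.61 for ATP5F1A, the alpha subunit of the ATP synthase (SE 0.12, adjusted p = 0.0768 by limma), to 0.07 for UQCRFS1 in ABC1, and from -0.27 for NDUFS3 to 0.11 for UQCRC2 in HCC4006.

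RNAs without a poly(A) tail were looked at because mitochondrial transcripts differ in their tails. Of 13 such nuclear RNAs, 7 were matched and 2 were tested. RN7SK was at 5.43 to 12.02 FPKM in all 8 libraries, and RN7SL2 at 7.84 to 12.7 FPKM in ABC1 and 52.5 to 81.8 FPKM in HCC4006. Neither was called with DEM, at 0.47 and 0.23 in ABC1 and 0.44 and -0.05 in HCC4006. RNU4-2, RNU5A-1 and VTRNA1-1 were listed at 0 in all libraries.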

How the data were processed

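Poly(A)-selected, strand-specific libraries were sequenced as paired 80-base reads. The authors deposited 1 FPKM value per gene and library, and per line a table whose base mean (normalized counts, a signal pooled over 4 libraries) was used and whose fold change and p-value columns were not. The submitters' notes name STAR 2.5.3a, Cuffnorm, HTSeq and DESeq2 on hg19 and GRCh37.p13, and the study's methods name TopHat and Cufflinks. Which of these made which values, and the depth of each library, are not given in the sources used here.

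Symbols, lengths and coordinates came from the GENCODE annotation of GRCh37. In each line limma 3.58.1 was fitted to log2(FPKM + 1) of all genes that averaged 1 FPKM or more, with a mean-variance trend and without pairing, and genes were called at a Benjamini-Hochberg adjusted p under 0.05. Contrasts of the lines and the interaction were fitted on all 8 libraries. A fold change on the log2(FPKM + 1) scale understates that of low genes. The design had foreseen a count test for count files, and FPKM needed limma. Shares were compared by an exact permutation test. The test was checked on simulated data. The limma p-values rest only on the spread between the 2 cultures of a group, pooled over the groups in a fit. That spread was moderated by the spread of all genes tested. All members are accounted for, nuclear copies were taken by symbol pattern and the highest 5 named, and of each gene list the called genes and both extremes are named. Members and lists were chosen with earlier results of these data known.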

Additional observations from a re-analysis of the deposited data

Results flagged for a closer look

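Transcripts that FPKM listed at 0 in all 8 libraries had values above 3 in the authors' base means, a part of the files outside the FPKM comparisons. MT-RNR2 had 151223 in ABC1 and 123400 in HCC4006, and MT-RNR1 had 25841 and 15647. Among the tRNAs, MT-TI had 609 in ABC1 and 10.2 in HCC4006, MT-TT 53.5 and 32.9, and MT-TP 31.9 and 19. MT-TQ had 15.1 and 19, MT-TA 8.64 and 10.9, and MT-TS1 23.1 and 6.17. MT-TW with 86.8 and MT-TM with 26.3 were above 3 in ABC1 and not in HCC4006. Base means pool vehicle and DEM, so a response to DEM of these transcripts was not analysed here.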

How the results depend on the processing

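Calls, log2 fold changes and medians of the mRNAs were recomputed under the other scalings, pseudocount, low-value filters, variance models and fits, and with each library left out, for the difference of response only as counts and for MT-ND2 and MT-ND4L. Shares were recomputed without MT-ATP8, by gene length and with each library left out, and shares of complexes, ratios between genes and base means only as given. The 0 calls of ABC1 became 1 with the replicate block (MT-ND1), and the 0 calls of HCC4006 became 1 when scaled by GAPDH (MT-ND4) and 2 with the replicate block (MT-ND4 and MT-ND6). Over all genes tested, the deviations of same-numbered replicates correlated at 0.258 in ABC1 and 0.0544 in HCC4006 over 2 pairs a line. The labels tie the numbers to no shared culture or day, so 2 pairs were not taken as paired. Among the mRNAs of ABC1, replicate 1 minus replicate 0 was lowest for MT-ND4L (-0.24 with vehicle, -0.04 with DEM) and highest for MT-ATP8 (0.44 and 1.19). In HCC4006 MT-ATP8 was lowest in both groups (-0.36 and -0.39), and the highest differed (MT-ND3, MT-ND4L). Whether the mRNAs alone deviate together was not tested. The block raised the calls over all genes of ABC1 from 97 up and 55 down to 1185 up and 1163 down. The 10 calls between the lines became 11 when scaled to the nuclear sum (MT-ND4 lower), 5 without the filter, all lower in HCC4006, and 1 higher and 7 lower with a pseudocount of 0.1. With a library left out there were 6 to 10, the 6 without HCC4006-vehicle replicate 0. The calls for the difference of response stayed at 0 in all alternatives.

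The median log2 fold change of the 13 mRNAs moved to 0.067 in ABC1 and 0.18 in HCC4006 when scaled by GAPDH, which put the median over the genes tested in ABC1 at -0.16. With a library left out it ran from 0.022 to 0.45 for ABC1 and from -0.015 to 0.22 for HCC4006. The difference in share was 1.79 and 0.748 percentage points without MT-ATP8 and 0.438 and 0.164 when weighted by gene length, which is approximate, since lengths joined the exons of all transcripts. With a library left out it ran from 0.393 to 4.28 for ABC1 and from 0.128 to 2.13 for HCC4006.

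When scaled by GAPDH the values of ABC1 turned to -0.10 for MT-CO1, -0.13 for MT-CO2, -0.016 for MT-ATP6, -0.13 for MT-CO3 and -0.087 for MT-ND4L, and MT-ND3 turned to 0.0076 when scaled by the median of ratios. Between the lines MT-CO2 turned to -0.043, -0.058 and -0.045 when scaled by the median of ratios, to the nuclear sum and by GAPDH. None of these had been called.

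Leaving out 1 library turned 7 values in each line, again among those not called. In ABC1 they ran from -0.17 to 0.47 for MT-ATP6, from -0.29 to 0.89 for MT-ATP8, from -0.14 to 0.26 for MT-CO1, from -0.32 to 0.37 for MT-CO2, from -0.068 to 0.14 for MT-CO3, from -0.21 to 0.20 for MT-ND3 and from -0.043 to 0.19 for MT-ND4L. In HCC4006 they ran from -0.075 to 0.14 for MT-ATP6, from -0.077 to 0.32 for MT-ATP8, from -0.11 to 0.16 for MT-CO2, from -0.045 to 0.11 for MT-CO3, from -0.042 to 0.20 for MT-CYB, from -0.21 to 0.062 for MT-ND2 and from -0.015 to 0.071 for MT-ND3. Between the lines MT-CO1 ran from -0.13 to 0.065 and MT-CO2 from -0.19 to 0.20.

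Over all genes, ABC1 had 0 calls without the filter (3883 genes with an unadjusted p under 0.05), 738 up and 756 down in the model of all 8 libraries, and 80 up and 165 down when scaled by GAPDH. HCC4006 had 1144 up and 1447 down, 177 and 193 without the filter, 706 and 847 in the model of all 8 libraries, and 1492 and 1052 when scaled by GAPDH. The cause was not tested. Adding the nuclear copies was chosen after seeing the data. The ratios of MT-ND1 to MT-ND4 and to MT-CO1, and of MT-CO2 to MT-CO3, were not named in the design. Those of MT-ND1 reuse the FPKM behind its differences between the lines and with DEM.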
